A study of Drosophila melanogaster with 4 samples.

Results

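The euchromatic stretch of chromosome arm 2L carried 1114 enriched HP1b clusters in third-instar larvae of Drosophila melanogaster. They are the clusters of the authors' combined set that lie on 2L and end at or before base 21011544 (FlyBase release 5), which leaves out the 2 Mb next to the centromere. They make up 13.2% of the 8426 clusters of that set. The chromatin came from wild-type larvae of the strain Oregon-R (Oregon-R-modENCODE), fixed with formaldehyde, and the labels name no tissue or treatment. Clusters were deposited for 2 HP1b ChIP libraries, here replicate 1 and replicate 2, and for the combined set. The labels leave unsaid whether each library had its own batch of larvae, and their spread could be purely technical. The 2 Input libraries of the series were not analysed here.

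HP1b is a member of the heterochromatin protein 1 family. Its chromodomain is of the type that recognises methylated histone H3, and its chromoshadow domain lets HP1 proteins pair with each other and with partner proteins. HP1a, the founding member, is concentrated in the heterochromatin around centromeres, whereas HP1b has been seen both there and on the gene-rich arms. The stretch of 2L described here is such a gene-rich arm.

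The 1114 clusters covered 13.2% of the 21011544-bp stretch. Replicate 1 had 743 clusters there, covering 8.66% of the bases, and replicate 2 had 951 clusters, covering 11.7%. The mean over the libraries was 847 ± 147.1 clusters (SD, n = 2) and a covered share of 10.2% ± 2.18 (SD, n = 2). Replicate 2 thus held more clusters and more covered bases than replicate 1, and the combined set exceeded both. Read depth is unknown, since the files hold clusters and not reads, and the part of depth in the difference between libraries was not tested. The cluster nearest the inside of the limit lay at chr2L:21008080-21010612, with a log2 score of 0.74, and the next one outside it at chr2L:21017800-21021372, with a log2 score of 0.97. At the telomeric end the first cluster of the combined set began at base 16230, and those of replicates 1 and 2 began at bases 17578 and 17567.

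Most clusters were short. Median widths were 2176 bp for the combined set, 2188 bp for replicate 1 and 2261 bp for replicate 2, and the middle 80% of combined clusters measured 1259 to 4033 bp. Broad clusters were few. Of the 1114, 49 were at least 5 kb wide, and all 49 were touched by a cluster of both libraries. The 2 clusters above 10 kb lay at chr2L:864694-875272 (10.6 kb) and chr2L:7417670-7428110 (10.4 kb). Wider clusters had higher scores, with a Spearman rho of 0.74 across the combined clusters and of 0.78 and 0.80 across those of replicates 1 and 2. The score is the authors' own value per cluster, on a scale inferred to be log2, and its reference is not stated. It is used here to rank clusters within a list.

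Support by the libraries was read as overlap by at least 1 bp. Both libraries touched 661 of the 1114 clusters, which is 59.3% (56.4 to 62.2 by the 95% Wilson method), against 51.3% of all 8426 combined clusters. Another 259 (23.2%) were touched by replicate 2 alone and 48 (4.31%) by replicate 1 alone. The remaining 146 (13.1%, interval 11.3 to 15.2) were touched by neither, against 21.6% of all combined clusters. On 3L, 3R and X, likewise without their proximal 2 Mb, both libraries touched 58.5%, 60.4% and 57.7% of the clusters. The share on 2L lay among those of these arms, and arm 2R was not compared. The intervals cover counting error only, and neighbouring clusters are not independent.

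Support followed width and score closely. Among the 123 clusters narrower than any library cluster of the whole series (1301 bp), 93 were touched by neither library and 0 by both. Of the 304 clusters from that width up to 2 kb, 48 (15.8%) were touched by both and 169 (55.6%) by replicate 2 alone. Of the 570 clusters of 2 to 4 kb, 497 (87.2%) were touched by both and 0 by neither. Of the 117 clusters of at least 4 kb, 116 were touched by both, and the other was touched by replicate 2 alone. When the clusters were split by score into 4 classes of nearly equal size, 38 of the 279 clusters with the lowest scores (13.6%) and 275 of the 279 with the highest scores (98.6%) were touched by both. Clusters touched by both had a median width of 2567 bp and a median log2 score of 0.86. Those touched by neither had medians of 1198 bp and 0.33. Because the combined set was made in a way not stated from the same experiment, this is a description of how the 3 lists relate and not independent evidence for a cluster.

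**Figure D1:**
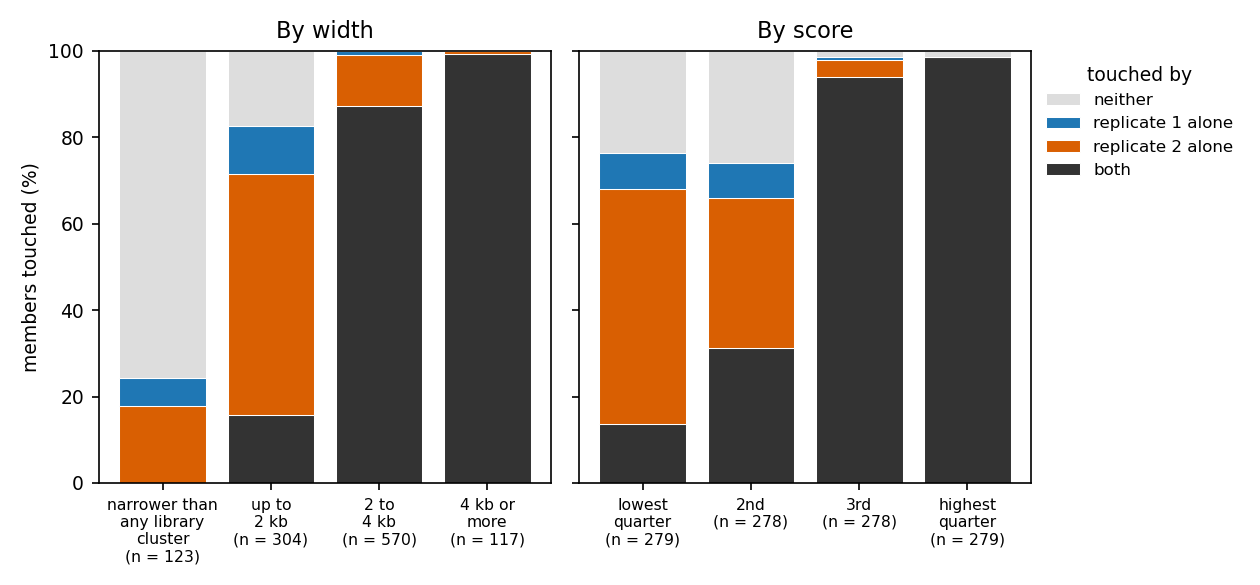
Share of the 1114 combined clusters of the 2L stretch (y axis, %) touched by both libraries, by replicate 2 alone, by replicate 1 alone or by neither, in 4 classes of width (left) and 4 classes of score (right), with the number of clusters under each bar. Support by both rises from 0 of 123 in the narrowest class to 116 of 117 in the widest, and from 13.6% to 98.6% over the score classes.

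The libraries placed the shared clusters at nearly the same bases. In replicate 1, 688 of 743 clusters (92.6%) were touched by replicate 2, and in replicate 2, 675 of 951 clusters (71.0%) were touched by replicate 1. They shared 1.67 Mb, which is 92.0% of the bases of replicate 1, 67.8% of those of replicate 2 and 64.0% of the bases in either. Positions were compared for the 619 members matched by exactly 1 cluster in each library, where these 2 clusters overlapped and touched no other member. Some closeness was thus built in. The centres of the library clusters differed by a median of 68.5 bp, and in 568 (91.8%) by at most 500 bp. The edges differed by a median of 93 bp at the start and 103 bp at the end. A centre difference is the mean of the 2 signed edge differences, so its smaller size was partly fixed in advance. Replicate 2 gave the wider cluster in 524 of these 619 (84.7%), with a median excess of 188 bp. Across the same 619 members the log2 scores of the libraries had a Spearman rho of 0.87 and the widths one of 0.78. These values are across clusters, which share their 2 libraries. Splitting of clusters was rare, since 29 members held 2 or more replicate 1 clusters and 20 held 2 or more replicate 2 clusters.

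The highest-scoring clusters touched by both libraries were wider than the median cluster of the stretch (2176 bp). Touch by both goes with width, since all clusters touched by both had a median of 2567 bp, and some of these highest-scoring ones were narrower than that. The 2 highest scores of the whole stretch belonged to clusters of 1007 and 1001 bp that neither library touched. The first of the 10 that both libraries touched lay at chr2L:18687732-18690758, and its log2 score was 3.05 in the combined list, with 2.69 and 3.40 in replicates 1 and 2. It ranked first among the 2L clusters of replicate 1 and second in replicate 2. The next was chr2L:7798708-7801590, with scores of 2.98, 2.49 and 3.44, and it ranked 1 in replicate 2 and 4 in replicate 1. Rank 5 of the combined set, chr2L:5277398-5280150, had scores of 2.94, 2.61 and 3.26 and ranked 2 in replicate 1 and 3 in replicate 2. Both libraries therefore put these 3 regions among their 4 highest on the stretch.

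The other 7 had combined log2 scores of 2.50 to 2.70. They lay at chr2L:9447786-9450784, chr2L:13175740-13178268, chr2L:3300944-3304708, chr2L:1168806-1171408, chr2L:13377508-13380032, chr2L:13372676-13375216 and chr2L:20348894-20351534. All 10 measured 2.53 to 3.77 kb, and clusters of replicate 1 covered at least 92.0% and those of replicate 2 at least 97.1% of each. None of the 10 was among the 5 widest. In the libraries' own rankings on the stretch, 6 of the 10 were within the first 10 of replicate 1 and 8 within the first 10 of replicate 2, and the lowest ranks were 16 and 14. Their surroundings differed. The neighbours chr2L:13372676-13375216 and chr2L:13377508-13380032 stood 2.29 kb apart, and chr2L:1168806-1171408 had a neighbour at 0.297 kb, whereas the cluster at chr2L:3300944-3304708 was 34.0 kb from its nearest neighbour and that at chr2L:20348894-20351534 was 29.9 kb from its own.

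The 5 widest clusters that both libraries touched had log2 scores from 1.22 to 2.04. None of them was among the 10 highest-scoring clusters described above, so scores below those were fixed by the selection. All 5 belonged to the class with the highest scores, which began at 1.01. After the 2 named above they were chr2L:2746320-2755962 (9.64 kb), chr2L:19569836-19578774 (8.94 kb) and chr2L:2195590-2204336 (8.75 kb). Replicate 2 covered each of the 5 to at least 98.5% with 1 cluster. Replicate 1 broke up 3 of them into 2 clusters each and covered chr2L:2746320-2755962 to 61.5%, which was its lowest share.

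Clusters did not stand at regular distances. From one cluster to the next the median gap was 6.07 kb for the combined set, 8.79 kb for replicate 1 and 7.04 kb for replicate 2, while the mean gaps were 16.4, 25.8 and 19.5 kb. The 25th percentile of the combined gaps was 2.10 kb and the 90th was 40.1 kb. The SD of the combined gaps was 1.81 times their mean, and in replicates 1 and 2 this factor was 1.76 and 1.81. All 3 lists thus had many short gaps beside a few very long ones. The 85 combined gaps of at least 50 kb were 7.64% of the gaps but held 39.6% of the stretch. In replicate 1 such gaps held 56.2% of it and in replicate 2 47.1%. Gap lengths followed each other weakly, with a rho between successive gaps of 0.15 for the combined set and of 0.11 and 0.13 for the libraries.

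**Figure D2:**
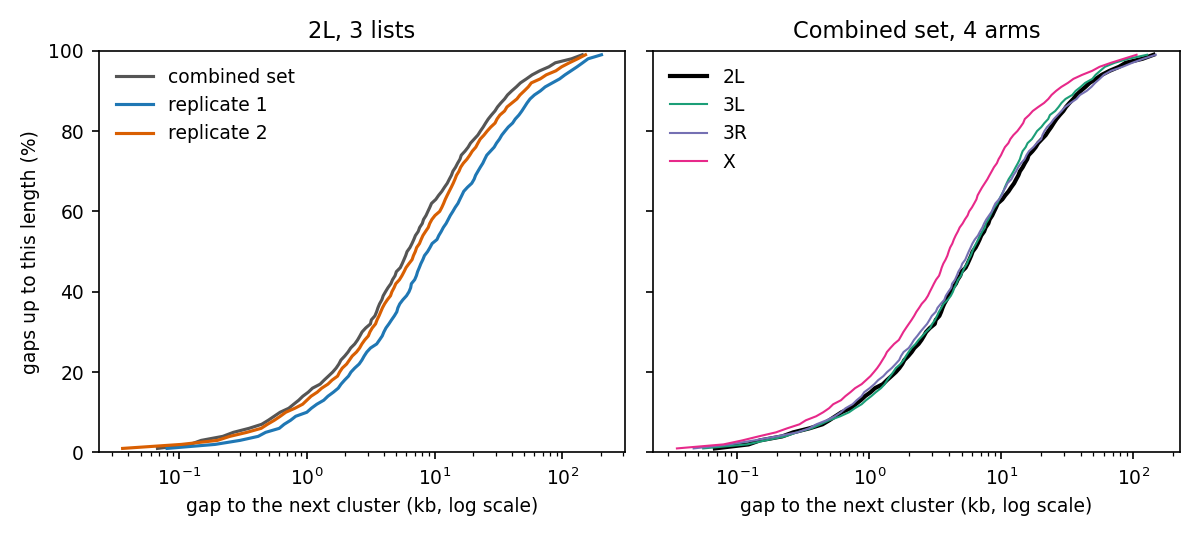
Percentage of gaps (y axis) up to a given length in kb (x axis, log scale), for the 3 lists on the 2L stretch (left) and for the combined set on 2L, 3L, 3R and X without their proximal 2 Mb (right). On 2L the median lies at 6.07 kb in the combined set, 7.04 kb in replicate 2 and 8.79 kb in replicate 1, and the curve of X lies to the left of the other arms, with a median of 4.00 kb.

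Closely spaced clusters formed chains. With a gap under 5 kb counted as linked, 744 of the 1114 clusters (66.8%) had a linked neighbour. In the libraries' own lists the shares were 55.9% (415 of 743) and 64.0% (609 of 951). Linking was not particular to 2L. In the combined set the share was 67.0% on 3L, 70.0% on 3R and 79.8% on X, likewise without their proximal 2 Mb. The 744 formed 244 chains, of which 120 were pairs and 35 had 5 members or more. The other 370 clusters stood alone. Clusters in chains of 5 or more had a median log2 score of 0.65 and a median width of 2435 bp, against 0.40 and 2025 bp for single clusters. Of the 208 clusters in such chains 68.8% were touched by both libraries, against 48.6% of the single ones. The score of a cluster was nearly unrelated to that of the next, with a rho of 0.05 across all 1113 neighbouring pairs and 0.04 across the 500 pairs under 5 kb apart.

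The chain with the most members lay at chr2L:10299244-10343688, where 10 clusters stood within 44.4 kb and covered 66.5% of it. Replicate 1 had 8 clusters there, covering 47.5%, and replicate 2 had 9, covering 58.2%. Log2 scores in the chain ran from 0.29 to 1.43, so it held none of the highest-scoring clusters. The chain at chr2L:18677020-18710996 had 8 members over 34.0 kb, including the highest-scoring cluster of those touched by both. The libraries were close to each other there, at 55.0% and 55.7%. The chain at chr2L:19002164-19035748 also had 8 members, over 33.6 kb, and here the libraries differed most among the 5 chains, with 4 clusters and 31.7% covered in replicate 1 against 7 clusters and 64.7% in replicate 2. The remaining 2 were chr2L:19108202-19147244, with 8 members, and chr2L:266990-298858, with 7, a number that other chains also had. They were covered to 38.5% and 37.7% in replicate 1 and to 53.2% and 49.2% in replicate 2.

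**Figure D3:**
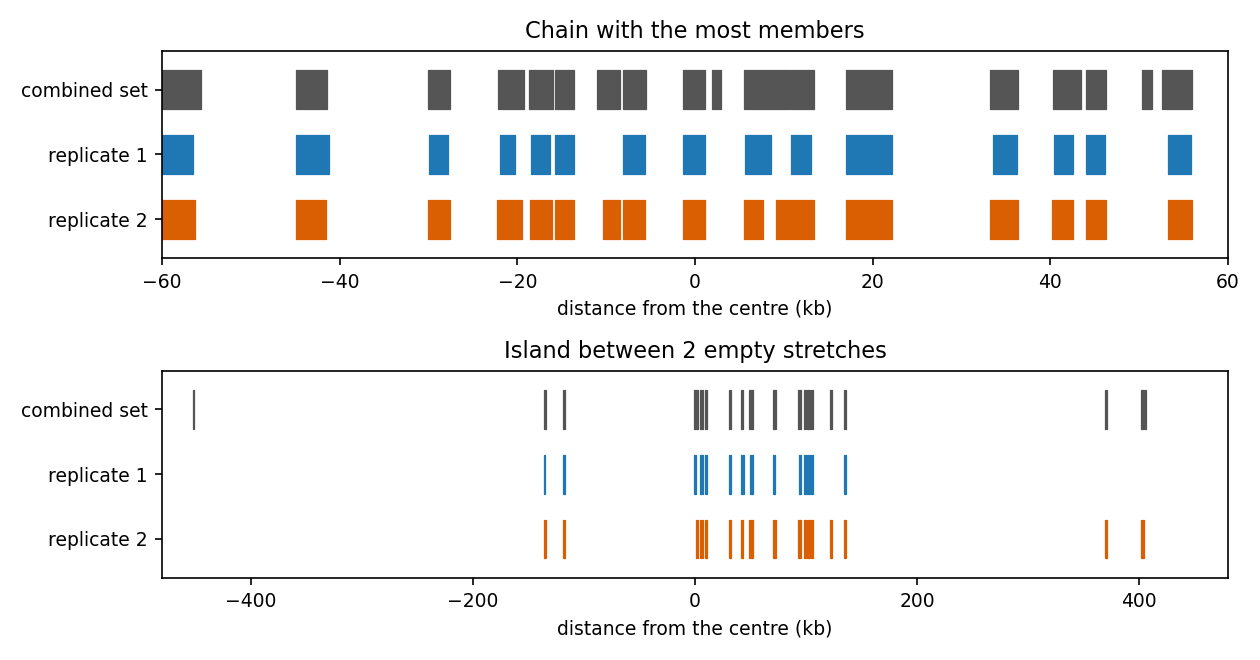
Clusters of the combined set, replicate 1 and replicate 2 (bars, to scale) around the chain with the most members (top) and around the island of 15 clusters between 2 empty stretches (bottom), with the distance from the centre in kb on the x axis. The chain holds 10, 8 and 9 clusters in the 3 lists, which cover 66.5%, 47.5% and 58.2% of it. The island has bare flanks of 314 and 233 kb and a gap of 116 kb within it.

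Cover varied along the arm and was patchy below the megabase scale. Neighbouring 100-kb windows were only weakly alike, with a rho of 0.21 for the combined set and of 0.16 and 0.18 for replicates 1 and 2. In the 21 full 1-Mb windows cover ranged from 2.95% to 13.1% in replicate 1 and from 3.98% to 17.2% in replicate 2. The ratio of highest to lowest was 4.45 and 4.34. Replicate 2 was above replicate 1 in all 21 windows, by a factor of 1.18 to 1.61. The order of windows was nonetheless shared, with a Spearman rho of 0.95 between the libraries across the 21 windows and 0.96 across the 210 windows of 100 kb. Windows share the 2 libraries and neighbours are not independent, so these values describe the lists. Windows with more cover had more clusters (rho 0.97 in the combined set) and to a lesser degree wider ones (rho 0.45 with the median width) and higher-scoring ones (rho 0.36 with the median score). Cover adds up the widths of the clusters in a window, so its relations with their number and width were partly fixed in advance.

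**Figure D4:**
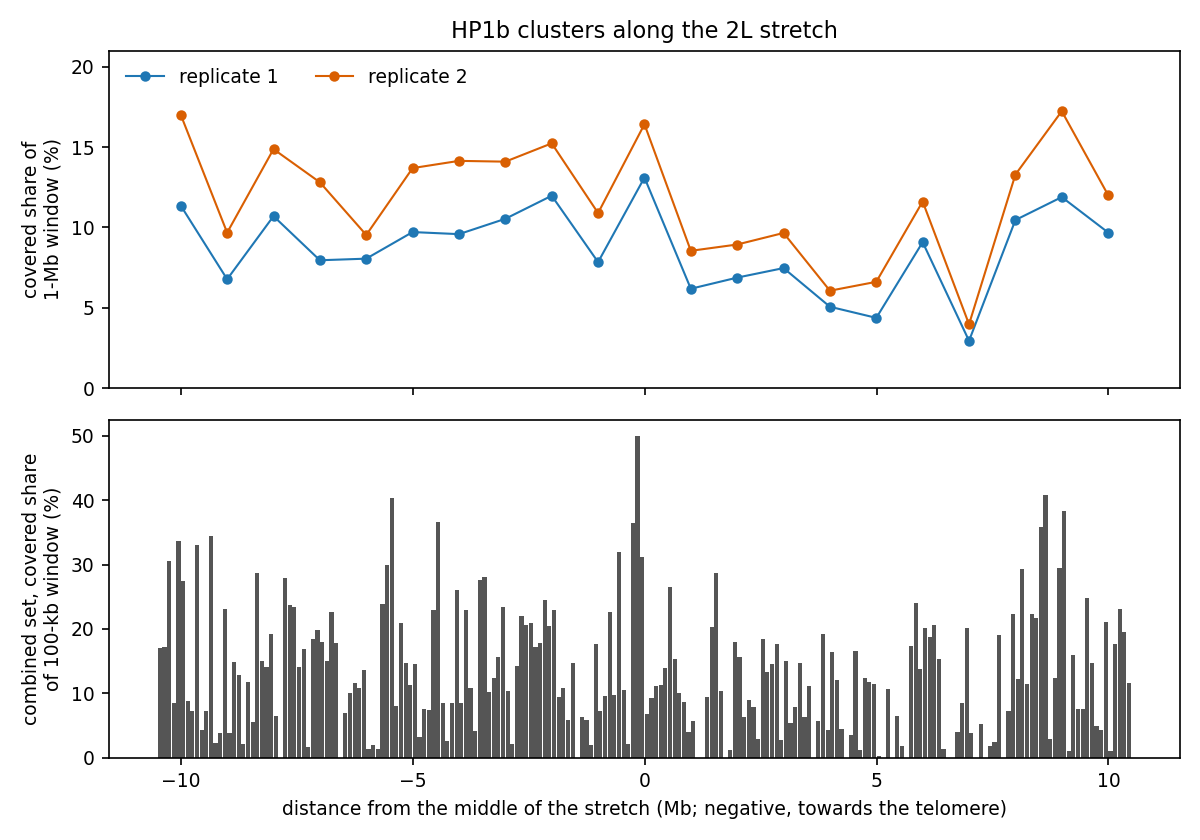
Covered share (y axes, %) along the 2L stretch, with the distance from its middle in Mb on the x axis and the telomere to the left. Top, 1-Mb windows in replicate 1 and replicate 2, from 2.95% to 13.1% and from 3.98% to 17.2%, with replicate 2 higher in all 21 windows; bottom, 100-kb windows of the combined set, of which 16 of 210 are empty and the highest reaches 49.9%.

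By the mean of both libraries the most covered windows were chr2L:10000001-11000000, chr2L:19000001-20000000 and chr2L:1-1000000. The first had 13.1% in replicate 1 and 16.4% in replicate 2, the second 11.9% and 17.2%, and the third 11.4% and 17.0%. Their order was not the same in both libraries, and their means differed by less than the spread between libraries, at 14.8% ± 2.35, 14.6% ± 3.78 and 14.2% ± 4.00 (SD, n = 2 each). They also differed in make-up. In the combined set the window from 10 to 11 Mb had 64 clusters with a median log2 score of 0.80, the highest of the 21 windows. The window from 19 to 20 Mb had 76 clusters, the most of any, with a median score of 0.40. At finer scale the 100-kb window chr2L:10300001-10400000 was the most covered of all 210 in each of the 3 lists, at 49.9% for the combined set and 36.2% and 43.5% for replicates 1 and 2. Its neighbour chr2L:10200001-10300000 ranked 2 in replicate 1 (30.0%) and 7 in replicate 2 (32.7%). Both were singled out after their values were seen.

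The least covered windows were chr2L:17000001-18000000, chr2L:15000001-16000000 and chr2L:14000001-15000000. They had 3.46% ± 0.727, 5.50% ± 1.59 and 5.57% ± 0.706 covered (SD, n = 2 each), and these 3 ranked last in both libraries. All 3 fall in a belt from 11 to 18 Mb, which was marked out after the values were seen. Replicate 1 covered 6.00% of the belt and 9.98% of the rest of the stretch, and replicate 2 covered 7.92% and 13.6%, a ratio of 0.601 and 0.580. The ranges of single windows overlapped, with a highest belt window of 9.09% in replicate 1 and 11.6% in replicate 2 against a lowest other window of 6.78% and 9.54%. Of the 276 combined clusters in the belt 158 were touched by both libraries, against 503 of the 838 outside it. High-scoring clusters were present there too, as 3 of the 10 with the highest score lay in the belt. None of the 5 widest clusters and none of the 5 chains with the most members did. The smallest of these 5 chains was taken from a tie in order along the arm, which favours chains distal to the belt.

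Cover was lowest in the proximal 7 Mb of the stretch in both libraries. Replicates 1 and 2 covered the distal 7 Mb to 9.17% and 13.1%, the middle 7 Mb to 9.14% and 11.97%, and the proximal 7 Mb to 7.65% and 10.1%. In replicate 1 the distal and middle values were nearly equal. The last 3 full windows before the limit were above that proximal value, with 9.69% to 11.9% in replicate 1 and 12.01% to 17.2% in replicate 2.

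The cover was concentrated in part of the arm. In the combined set 52 of the 210 windows of 100 kb (24.8%) held 50% of the covered bases, and in the libraries 46 (21.9%) and 50 (23.8%) did. At the other end, the combined set left 16 windows empty, replicate 1 left 36 and replicate 2 left 24. The libraries shared 21 empty windows. Another 15 were empty in replicate 1 alone, and 3 were empty in replicate 2 alone. Replicate 2 had the higher cover in 176 of the 210 windows and replicate 1 in 13. Of the 10 most covered windows of each library, 7 were the same.

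**Figure D5:**
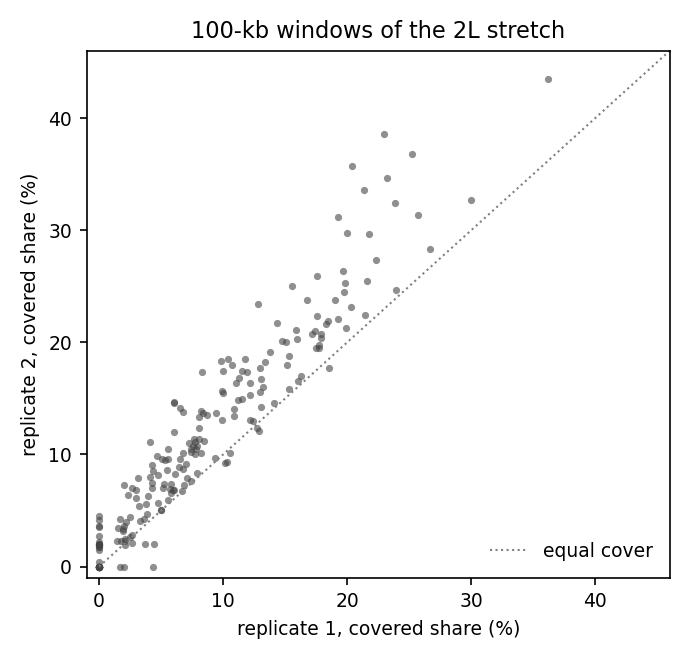
Covered share of the 210 windows of 100 kb of the 2L stretch in replicate 1 (x axis, %) and replicate 2 (y axis, %), 1 point per window, with a dotted line of equal cover. Replicate 2 is higher in 176 windows and replicate 1 in 13, and the highest point in both is the window at 36.2% and 43.5%.

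The longest empty stretches, with no cluster in any of the 3 lists, lay mostly in the belt, which was itself marked out for its low cover. Of the 86 empty stretches of at least 50 kb, 29 lay there, which is close to the belt's share of the bases. There were 26 of at least 100 kb, which held 4.03 Mb (19.2%) of the stretch, and 15 of them lay between 11 and 18 Mb, which is 33.3% of it. All 4 of at least 200 kb were there, as were 10 of the 12 longest. The longest ran from base 16928005 to 17242497 (314 kb). It was followed by 11529769 to 11800319 (271 kb), 14745088 to 14990925 (246 kb), 17515283 to 17748231 (233 kb) and 16050793 to 16250779 (199.99 kb). Whether assembly gaps or bases that reads cannot be placed on lie in them was not tested, since no genome of release 5 was at hand.

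Between the 314-kb and the 233-kb stretch lay an island of 15 clusters at chr2L:17242498-17515282, 273 kb in length. The island was itself interrupted by a gap of 116 kb, which followed the cluster at chr2L:17259776-17261842. Both libraries touched 14 of the 15, and the other was touched by replicate 2 alone. Combined log2 scores in the island ran from 0.19 to 1.78. Its highest cluster, chr2L:17383014-17386400, scored 1.62 in replicate 1 and 2.03 in replicate 2. The 1-Mb window around the island held 4 other clusters, and of these 3 were touched by replicate 2 alone and 1 by neither. The least covered window of the arm therefore owed 15 of its 19 clusters to this island, which was singled out after its values were seen.

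None of the 3 most isolated clusters was touched by both libraries. The 3 farthest from any neighbour were chr2L:16048908-16050792 (134.5 kb away), chr2L:14094078-14095780 (69.0 kb) and chr2L:20561320-20562442 (65.5 kb). Replicate 2 alone touched the former pair, with log2 scores of 0.53 and 0.33 in its own list, and the other was touched by neither library.

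Against the arms 3L, 3R and X without their proximal 2 Mb, 2L was covered about as much as 3R and less than 3L and X in each library. The covered share of 2L was 0.924 and 0.921 times that of 3L in replicates 1 and 2, 0.995 and 0.999 times that of 3R, and 0.706 and 0.691 times that of X. Against 3L and 3R together it was 0.961 ± 0.000322 (SD, n = 2). Over the alternative settings given below that ratio ran from 0.922 to 0.981, far beyond this SD between libraries. The ratios to 3L and X were below 1 in both libraries, but with 2 libraries the smallest p of an exact sign test (two-sided) is 0.5. Median widths were 2225 ± 51.6 bp on 2L, 2215 ± 39.6 bp on 3L, 2234 ± 62.2 bp on 3R and 2282 ± 94.0 bp on X (SD, n = 2 each). The median gap was 7.91 ± 1.23 kb on 2L and 8.15 ± 1.55 kb on 3L, with 8.79 against 9.24 kb in replicate 1 and nearly equal values of 7.04 and 7.05 kb in replicate 2. Clusters per Mb numbered 35.4 on 2L and 39.0 on 3L in replicate 1, and 45.3 and 50.0 in replicate 2. By cluster number 2L thus had 0.906 ± 0.000368 times the density of 3L (SD, n = 2), below 1 in both libraries. The combined set gave 0.891, also beyond that SD. Gaps of at least 50 kb held 51.7% ± 6.45 of 2L, 44.7% ± 6.64 of 3L, 52.1% ± 6.41 of 3R and 39.9% ± 5.53 of X (SD, n = 2 each). In replicates 1 and 2 they held 56.2% and 47.1% of 2L and 49.3% and 40.0% of 3L. On 3R the values were 56.6% and 47.6%, and on X 43.8% and 35.9%. In each library 2L was thus above 3L and X and slightly below 3R. Of 100-kb windows, 17.1% and 11.4% were empty on 2L in the 2 libraries, while 3L had 9.78% and 8.00%, 3R 15.4% and 9.27%, and X 7.84% and 4.90%. The share was highest on 2L in both libraries among these 4 arms, and whether that differs from 3R could not be tested.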

How the data were processed

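The series holds 2 HP1b ChIP and 2 Input libraries, grouped by their titles. Bowtie 0.12.7 is the aligner named, per the submitters' processing notes. Neither the program that called the clusters, nor its threshold, nor how the combined set arose is stated in the material used. Each row deposited by the authors is 1 cluster with start, end and a log2 score, on FlyBase release 5, per the file headers. What the log2 score divides by what is not stated in the deposited files. Its base was inferred from tied scores: among scores shared by 3 or more clusters of the combined set, 437 pairs differed by log2 of a quotient of whole numbers up to 20 (within 1e-06), against 2 pairs for natural and 11 for base-10 logarithms.

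Rows marked as depletion were dropped, 1 of them on 2L. Gap means the bases between neighbouring clusters, covered share the percentage of bases in a cluster, and windows start at the first base of the arm. The regions named were the 10 highest-scoring and 5 widest clusters touched by both libraries, the 3 highest-scoring touched by neither, the 3 most isolated, the 5 chains with the most members (ties taken in order along the arm), the 5 longest empty stretches, and the 3 most and least covered 1-Mb windows. The members, these rules and the alternatives were chosen with earlier results of these data known. Because the only gene table is of release 6 and no genome was used, clusters carry no gene names and no sequence is shown. With 1 group and 2 libraries no test of conditions was possible. Correlations are Spearman's and describe the lists. Calculations used Python 3.11.15, pandas 2.3.3, NumPy 2.4.6 and SciPy 1.17.1, and the interval functions were tested on simulated data.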

Additional observations from a re-analysis of the deposited data

How the results depend on the processing

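Values were taken to stay where the number of clusters was within 1.5 times, the share touched by both libraries within its 95% Wilson interval, and any other value within 1 SD between the libraries. Of 82 recomputed values of 11 results, 46 stayed and 36 moved. Only the score and width rho and the ratio of 2L to 3L and 3R could change direction, and neither did. Leaving out clusters narrower than any library cluster could not alter values taken from the libraries alone, which are counted among those that stayed. With a mean over 2 libraries, each library always lies within 1 SD, so leaving one out could not move such a value. Without clusters narrower than any library cluster, the median width was 2277 bp, the gap SD 1.76 times the mean, the score and width rho 0.77 and the share touched by both 66.7%. With clusters under 1000 bp apart merged, the median width was 2285 bp, the median gap 8014 bp, the gap SD 1.64 times the mean, the linked share 55.5%, the rho 0.71, the ratio of 2L to 3L and 3R 0.959 and the ratio of densest to sparsest window 4.48. The higher-scoring 50% of each list left 550 clusters, with a median width of 2677 bp, a median gap of 13039 bp, a gap SD of 1.61 times the mean, 50.4% linked, a rho of 0.32, a covered share of 6.11%, a ratio to 3L and 3R of 0.981 and a window ratio of 6.98. That ratio to 3L and 3R was 0.953 and 0.922 with the proximal 1 or 4 Mb left out, 0.949 in the combined set and 0.946 by cluster number. With replicate 1 in place of the combined set the median gap was 8787 bp, the gap SD 1.76 times the mean, the linked share 55.9% and the rho 0.78, and with replicate 2 the median width was 2261 bp and the rho 0.80. The covered share was 13.2% in the combined set. The linked share was 41.3% with gaps under 2 kb and 83.2% under 10 kb, and the window ratio was 32.1 with 500-kb windows. The share touched by the libraries ranged from 63.6% without replicate 2 to 82.6% without replicate 1, since fewer libraries had to touch. The causes of the other shifts were not tested. No paired analysis was possible because no Input file, which alone could pair with a ChIP library by number, was analysed. Read depth is unknown, so what it limits cannot be stated.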

Other observations

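The 2 highest scores of the stretch belonged to clusters that neither library had. They lay at chr2L:19672962-19673968, with a log2 score of 3.47 and a width of 1007 bp, and at chr2L:14990926-14991926, with a score of 3.05 and a width of 1001 bp. The second directly follows the 246-kb empty stretch. The third highest of this kind, chr2L:11316666-11317690, scored 1.88 and was 1025 bp wide. The median score of the 146 clusters touched by neither was 0.33, and 4 of them were among the 279 highest-scoring clusters of the stretch. Of the 10 highest-scoring clusters of the stretch, 8 were touched by both libraries and 2 by neither.

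The 1 row of 2L that the authors marked as depletion lay at chr2L:13215106-13216922, where the combined set alone had a log2 score of -0.04. It stood between an enriched cluster touched by replicate 1 alone, 2.72 kb before it, and one touched by neither library, 0.449 kb after it.

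Of the library clusters on the stretch, 6 of 743 in replicate 1 and 19 of 951 in replicate 2 had no counterpart in the combined set. Starts and ends in the combined set were all even numbers (100% of 1114 clusters), whereas 52.6% of starts in replicate 1 and 47.8% in replicate 2 were even.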
